A study of Homo sapiens with 4 samples.

Results

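The 10 genes described here encode sensors of foreign or misplaced RNA and DNA, the adaptors that pass the signal on, and the kinase and transcription factor at the end of that chain. They are DDX58 (RIG-I), IFIH1 (MDA5), DHX58 (LGP2), MAVS, TLR3, TMEM173 (STING), ZBP1, EIF2AK2 (PKR), IRF3 and TBK1, chosen by name and found once each among the 58735 genes of the count table. HCC1954, a line of human breast cancer cells, carries an amplified ERBB2 gene. Total RNA of HCC1954 cells was sequenced in 4 samples, 2 given a scrambled hairpin as control (shCON) and 2 given one that targets the palmitoyltransferase gene ZDHHC15 (shZDHHC15), all from GIPZ lentiviral plasmids. The labels give the harvest as 36 h after transfection of the plasmids with Lipofectamine and elsewhere call the knockdown stable, and the study's methods mention the screening of monoclonal cultures, so whether a group holds 1 clone, several clones or a pool is not known. Nothing in the labels says that the samples of a group came from separate cultures or carried different hairpins, so the p-values below measure only the spread between these samples, which may be technical.

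Nucleic acid sensors of this kind are kept at a low level in most epithelial cells and are themselves raised by interferon, so that a cell that has sensed RNA or DNA once becomes more sensitive. RIG-I and MDA5 bind double-stranded RNA in the cytosol and signal through MAVS on mitochondria, cGAS makes a cyclic dinucleotide on cytosolic DNA that STING receives at the endoplasmic reticulum, and TLR3 binds double-stranded RNA in endosomes. These routes meet at the kinase TBK1, which phosphorylates IRF3, whereas PKR shuts down translation on double-stranded RNA and ZBP1 binds nucleic acids in the Z conformation. Both groups received a hairpin plasmid, and no untransfected cells were analysed here.

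The counts on genes summed to between 17560982 and 19118704 per sample. The targeted gene ZDHHC15 had 17617 and 15716 counts in shCON and 0 in each shZDHHC15 sample, where a count of 0 allows up to 3 counts, or 0.165 and 0.157 CPM (counts scaled to a common library total), by counting error alone. Why no count at all remained in shZDHHC15 was not tested. Mitochondrial genes took between 2.07% and 2.18% of the counts in shCON and between 2.58% and 2.63% in shZDHHC15. All 8 epithelial and HER2 markers examined were detected, with a summed level between 16761 and 18079 CPM in shCON and between 9738 and 9841 CPM in shZDHHC15, 5 of them being lower and 1 higher in shZDHHC15. Of 11 leukocyte markers, 9 had a count in some sample, their summed level was between 1.97 and 2.13 CPM in shCON and between 3.87 and 4.40 CPM in shZDHHC15, and the T cell marker CD3E was at 0 in every sample. Only CD14 (9 and 5 counts in shCON, 25 and 22 in shZDHHC15) and IL3RA (10 and 17 against 38 and 36) were tested. Both passed the filter on low counts only through the shZDHHC15 samples, where they were higher. They were called higher by edgeR (adjusted p = 0.0158 and 0.0147) but not by DESeq2 (adjusted p = 0.1 and 0.0868). The part of these shifts in the results below was not tested.

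Promoter sequences were examined for the short elements through which interferon factors act. The windows run from 250 bases before to 50 bases after the RefSeq start on GRCh38.p14 and were held for 6 of the 10 genes, namely DDX58, IFIH1, MAVS, TLR3, EIF2AK2 and TBK1. The pattern GAAANNGAA, the core of the interferon-stimulated response element, was searched on both strands and lay in 8.11% of the 35116 promoters of the RefSeq table. It was found in the windows of IFIH1, TLR3 and EIF2AK2. In DDX58 only a closer spaced variant, GAAANGAAA, was found, which 3.12% of all promoters hold and which was added after the DDX58 sequence had been seen. Stretches of 30 bases around these matches are given 5′ to 3′ in the direction of the gene, with the match in capitals.

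DDX58 (chr9:32526380-32526409, minus strand): ggtgcggaggGAAACGAAActagcccgagg

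IFIH1 (chr2:162318686-162318715, minus strand): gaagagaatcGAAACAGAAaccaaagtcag

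TLR3 (chr4:186069143-186069172, plus strand): aagctttactTTCACTTTCgagagtgccgt

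EIF2AK2 (chr2:37156967-37156996, minus strand): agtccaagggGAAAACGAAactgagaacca

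The match of IFIH1 began 21 bases before the RefSeq start, that of EIF2AK2 6 bases and that of TLR3 3 bases before it, whereas the DDX58 match began 203 bases upstream. These distances hold for the RefSeq starts, which differ from the gene boundaries given below. By those boundaries the matches of EIF2AK2 and TLR3 lie inside the gene and that of DDX58 outside it. IFIH1 held 4 matches in all, and the 3 others overlapped one another with starts 164, 158 and 152 bases upstream. The windows of MAVS and TBK1 held neither pattern. The STAT element TTCNNNGAA, present in 7.66% of promoters, was found in TLR3 alone among the 6, at 2 positions. The TEAD element GGAATG, present in 14.0% of promoters, was found once in TLR3 and once in TBK1. A wider set held the tested genes with a single promoter entry, and genes with several entries were left out. In this set GAAANNGAA lay in 9.04% of the 1737 genes called higher, in 5.43% of the 1823 called lower and in 6.03% of the 4544 not called. A match is a description of the letters and was not tested as a binding site.

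Of the 10 genes, 8 were higher and 0 were lower in shZDHHC15 than in shCON cells (quasi-likelihood test of edgeR, Benjamini-Hochberg adjusted p under 0.05 over 15817 tested genes), while 21.7% of all tested genes were called higher and 20.3% lower. At an unadjusted p under 0.05, 1 of the 10, IRF3, was lower, beside 3777 of all 15817 tested genes. The DESeq2 Wald test also called 8 of the 10 higher and 0 lower, beside 2645 and 2704 of all tested genes. All 10 passed the filter on low counts, but ZBP1 passed it only through the shZDHHC15 samples, so that it could pass only by being higher there. The median log2 fold change of the 10 genes was 2.29, beside 0.02 over all tested genes. CPM values, scaled by TMM factors, did not overlap between the groups for the same 8 genes, which lay higher, nor for IRF3, which lay lower, where 37.2% and 35.3% of all tested genes did so in the respective direction. A change in the share of cells with a transcript and a change in transcript per cell cannot be told apart in these bulk samples.

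**Figure D1:**
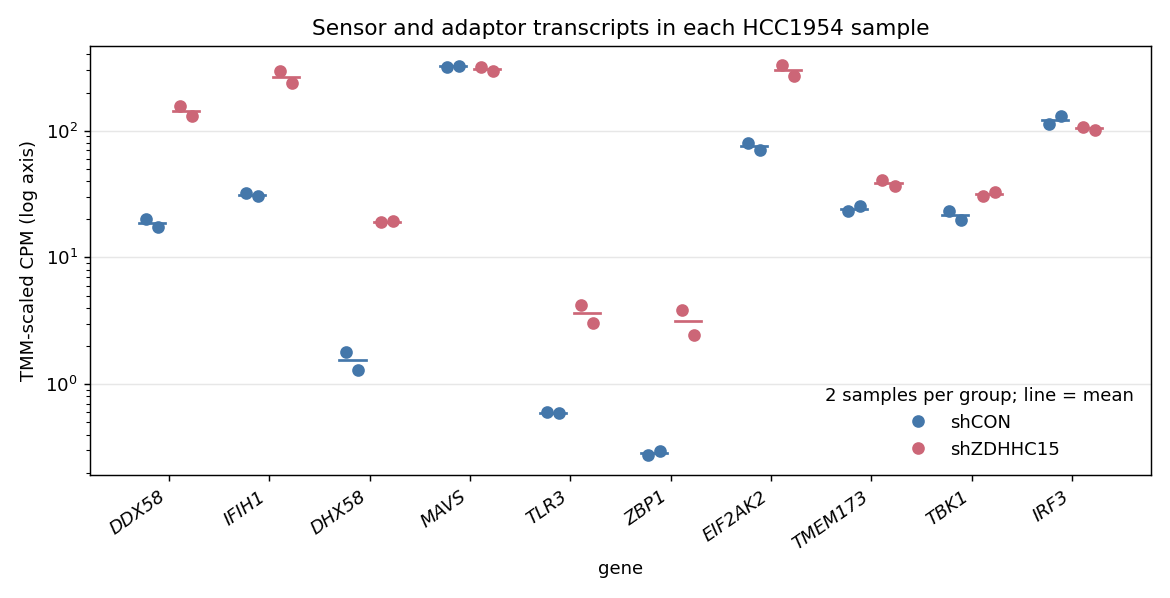
TMM-scaled CPM of the 10 genes in each sample on a log axis, with the 2 shCON samples in blue, the 2 shZDHHC15 samples in red and a line at each mean. The red points of DDX58, IFIH1, DHX58, TLR3, ZBP1, EIF2AK2, TMEM173 and TBK1 all lie above the blue ones, those of MAVS overlap and those of IRF3 lie below.

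All 3 RIG-I-like receptors were higher in shZDHHC15 than in shCON. DDX58 (ENSG00000107201, chromosome 9, 32455705 to 32526324, minus strand) encodes RIG-I, the sensor of short double-stranded RNA with a 5′ triphosphate. Its counts were 364 and 293 under shCON, against 2909 and 2564 under shZDHHC15. The level rose from 18.6 ± 1.83 to 143 ± 18.1 CPM (SD, n = 2), and edgeR put the log2 fold change at 2.94 (adjusted p = 1.97e-10, standard error 0.126). The lowest shZDHHC15 sample lay far above the highest shCON sample, at 130 against 19.9 CPM.

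IFIH1 (ENSG00000115267, chromosome 2, 162267079 to 162318703, minus strand) encodes MDA5, which assembles along long double-stranded RNA. Its counts were 584 and 516 in shCON and 5473 and 4705 in shZDHHC15. The level went from 31.3 ± 1.02 to 266 ± 38.3 CPM (SD, n = 2), with a log2 fold change of 3.09 (adjusted p = 6.03e-11 by edgeR, standard error 0.119). This was the most abundant of the 3 receptors in every sample. The ratio of IFIH1 to DDX58 in TPM (counts divided by gene length, then scaled to the same sum in each sample) was 1.37 and 1.5 in shCON and 1.60 and 1.56 in shZDHHC15, so the mixture of both sensors moved far less than their levels.

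DHX58 (ENSG00000108771, chromosome 17, 42101404 to 42112733, minus strand) encodes LGP2, a relative of RIG-I and MDA5 that lacks the caspase recruitment domains needed to engage MAVS and that tunes the other sensors. It was scarce in shCON, with 33 and 22 counts, and received 353 and 381 counts in shZDHHC15. With a rise from 1.56 ± 0.357 to 19.2 ± 0.319 CPM (SD, n = 2), its log2 fold change of 3.61 (adjusted p = 7.25e-09 by edgeR, standard error 0.214) was the highest point estimate among the 10 genes. The rank is not settled, since the interval of ZBP1, from 2.42 to 4.45, holds all of that of DHX58, and ZBP1 was higher without shCON replicate 2 (3.47 against 3.39) and without shZDHHC15 replicate 2 (3.72 against 3.59). The 95% interval of DHX58 ran from 3.15 to 4.07 and that of DDX58 from 2.67 to 3.21, so their ends overlapped slightly. Per length, DHX58 amounted to 0.0434 and 0.0340 of DDX58 plus IFIH1 in shCON and to 0.0528 and 0.0657 in shZDHHC15.

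The protein-coding genes whose pattern over the 4 samples lay nearest to that of DHX58, by Euclidean distance of centred log2 CPM among 12956 tested genes, were UBA7 (distance 0.241), the activating enzyme of the ubiquitin-like protein ISG15, followed by AKR1B10 (0.274), an aldo-keto reductase, and APOL1 (0.289), an apolipoprotein. Their log2 fold changes were 3.68, 3.39 and 3.45. With 4 samples in 2 groups, this likeness mostly reflects the size of the fold change.

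MAVS (ENSG00000088888, chromosome 20, 3846799 to 3876123, plus strand), the mitochondrial adaptor that RIG-I and MDA5 share, stood apart from its sensors. It received 5845 and 5489 counts in shCON and 5981 and 5810 counts in shZDHHC15, and the CPM ranges of the groups overlapped. The level was 323 ± 3.42 CPM in shCON and 308 ± 17.8 CPM in shZDHHC15 (SD, n = 2). The log2 fold change of -0.07 (adjusted p = 0.587 by edgeR, standard error 0.0888) had a 95% interval from -0.26 to 0.12, and its sign turned with library size as the only scaling, to 0.0091. In each sample the TPM of the 3 receptors together was divided by that of MAVS. This ratio was 0.416 and 0.373 in the shCON samples and 3.61 and 3.26 in the shZDHHC15 samples. By this measure receptor transcripts went from a minority to an excess over those of the adaptor. TPM here divides by the union of annotated exons, 11771 bases for MAVS, and the lengths of the expressed isoforms were not measured.

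TLR3 (ENSG00000164342, chromosome 4, 186069152 to 186088069, plus strand), the endosomal receptor of double-stranded RNA, was scarce in shCON with 11 and 10 counts. In shZDHHC15 it received 79 and 60 counts. The level rose from 0.597 ± 0.00738 to 3.64 ± 0.837 CPM (SD, n = 2), and the log2 fold change was 2.59 (adjusted p = 7.14e-05 by edgeR, standard error 0.375). ZBP1 (ENSG00000124256, chromosome 20, 57603846 to 57620576, minus strand), which senses Z-form nucleic acids and can start necroptosis, was scarcer still, with 5 counts in either shCON sample and 72 and 48 in shZDHHC15. It rose from 0.285 ± 0.0157 to 3.15 ± 1.00 CPM (SD, n = 2), with a log2 fold change of 3.43 (adjusted p = 4.87e-05 by edgeR, standard error 0.476). These few counts leave both values imprecise, with 95% intervals from 1.79 to 3.39 for TLR3 and from 2.42 to 4.45 for ZBP1. For both genes shZDHHC15 replicate 1 was the higher of the pair.

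EIF2AK2 (ENSG00000055332, chromosome 2, 37099210 to 37157065, minus strand) encodes PKR, the kinase that phosphorylates the initiation factor eIF2alpha when it binds double-stranded RNA. It was already well expressed in shCON, with 1467 and 1181 counts, and received 6104 and 5355 counts in shZDHHC15. The rise from 75.1 ± 7.37 to 300 ± 38.8 CPM (SD, n = 2) gave a log2 fold change of 2.00 (adjusted p = 4.04e-09 by edgeR, standard error 0.112). EIF2S1, which encodes its substrate eIF2alpha, had a log2 fold change of -0.05 (adjusted p = 0.675 by edgeR). The TPM ratio of EIF2AK2 to EIF2S1 was 0.211 and 0.187 in shCON and 0.904 and 0.746 in shZDHHC15. A pseudogene on the opposite strand, AC007899.1, overlaps 401 bases of EIF2AK2 exons with 99.8% identity over 409 aligned bases, and received between 0 and 5 counts per sample. The coding gene GPATCH11 overlaps 35 bases of them.

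TMEM173 (ENSG00000184584, chromosome 5, 139475534 to 139482935, minus strand) encodes STING, the adaptor of the DNA route. It received 423 and 428 counts in shCON and 764 and 717 in shZDHHC15, without overlap. The level moved from 24.3 ± 1.54 to 38.7 ± 3.18 CPM (SD, n = 2), with a log2 fold change of 0.68 (adjusted p = 4.69e-04 by edgeR, standard error 0.122). Its 95% interval, from 0.42 to 0.94, lay below that of each RNA sensor above. CGAS, which makes the ligand of STING and is given here because of that role, received 7 and 10 counts in shCON and 28 and 38 counts in shZDHHC15 (log2 fold change 1.82, adjusted p = 0.00418), and it passed the filter only through the shZDHHC15 samples.

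TBK1 (ENSG00000183735, chromosome 12, 64451880 to 64502108, plus strand), the kinase on which the MAVS, STING and TLR3 routes converge, received 426 and 336 counts in shCON and 567 and 643 counts in shZDHHC15. The level rose from 21.6 ± 2.43 to 31.6 ± 1.63 CPM (SD, n = 2), with a log2 fold change of 0.54 (adjusted p = 0.00334 by edgeR, standard error 0.128), which was the smallest rise called among the 10 genes. An antisense gene, AC135279.3, overlaps 702 bases of its exons and received between 0 and 2 counts per sample.

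IRF3 (ENSG00000126456, chromosome 19, 49659569 to 49665875, minus strand), the transcription factor that TBK1 activates and that cells hold ready as a protein, received 2051 and 2223 counts in shCON and 2003 and 1991 counts in shZDHHC15. The levels of 122 ± 13.6 and 104 ± 4.34 CPM (SD, n = 2) gave a log2 fold change of -0.22 (adjusted p = 0.0945 by edgeR, standard error 0.103), with a 95% interval from -0.44 to -0.0047. The difference did not pass the threshold. Without shCON replicate 1 it was -0.37 with an adjusted p of 0.00292 and was called lower, in an edgeR fit where the lone shCON sample is assumed to vary like the other group. BCL2L12 shares 734 bases of exon with IRF3 on the opposite strand, and strand use in counting is not given in the sources used here. BCL2L12 itself received 1342 and 1477 counts in shCON and 1131 and 1118 in shZDHHC15 (log2 fold change -0.45, adjusted p = 0.00423).

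**Figure D2:**
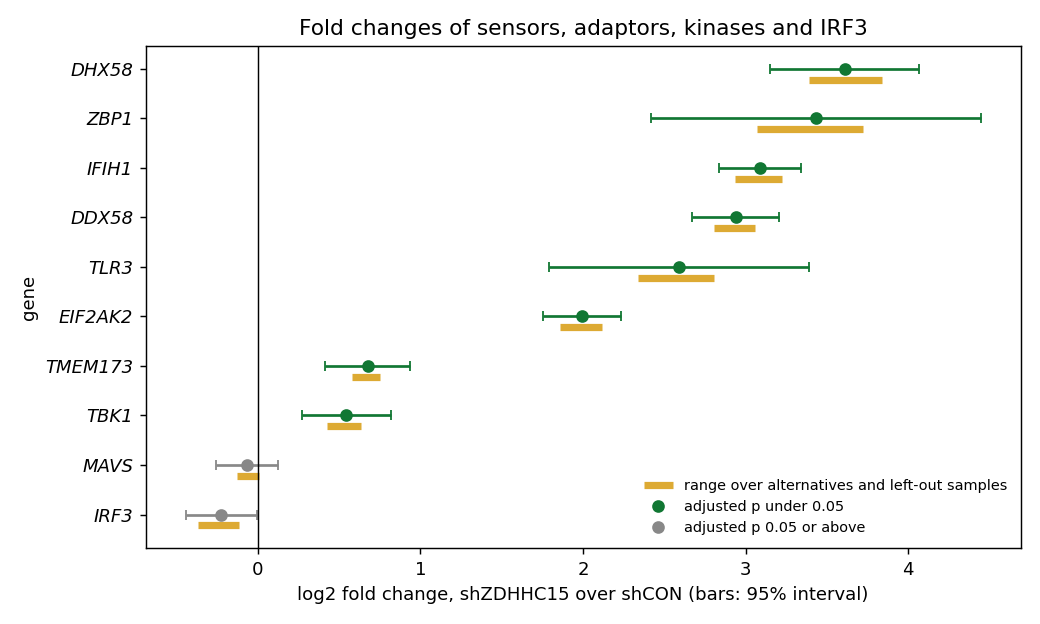
Log2 fold changes of shZDHHC15 over shCON with 95% intervals (points and bars, green for an adjusted p under 0.05, grey otherwise), and in yellow the range over the alternative settings and over fits without 1 sample. DHX58 (3.61) and ZBP1 (3.43) are at the top with overlapping intervals, and their order turned in 2 of the 4 fits without 1 sample. The other RNA sensors lie between 2.00 and 3.09, TMEM173 and TBK1 lie at 0.68 and 0.54, and MAVS and IRF3 lie at -0.07 and -0.22.

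The order of the transcripts per length differed between the groups, where length is the union of annotated exons and not that of the expressed isoforms. In shCON cells IRF3 (109 ± 7.93 TPM, SD, n = 2) and MAVS (92.7 ± 2.62 TPM) led, and the ranges of these neighbours did not overlap. EIF2AK2 (23.7 ± 3.24 TPM), TMEM173 (21.3 ± 0.521 TPM) and IFIH1 (20.7 ± 1.48 TPM) came next, each overlapping the next within these 3, and were apart from MAVS above and TBK1 below. TBK1 (15.4 ± 2.33 TPM) and DDX58 (14.5 ± 1.99 TPM) likewise overlapped. DHX58 (1.38 ± 0.368 TPM), TLR3 (0.301 ± 0.0154 TPM) and ZBP1 (0.178 ± 0.00288 TPM) were lowest.

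In shZDHHC15 cells IFIH1 led with 190 ± 27.5 TPM (SD, n = 2), above all other members in both samples. DDX58 (120 ± 15.3 TPM), EIF2AK2 (102 ± 13.3 TPM), IRF3 (100 ± 4.26 TPM) and MAVS (95.5 ± 5.61 TPM) followed, each overlapping the next. TMEM173 was at 36.7 ± 3.05 TPM, TBK1 at 24.2 ± 1.22 TPM and DHX58 at 18.2 ± 0.285 TPM, with no overlap between neighbours. ZBP1 (2.13 ± 0.679 TPM) and TLR3 (1.98 ± 0.456 TPM) remained lowest and overlapped.

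**Figure D3:**
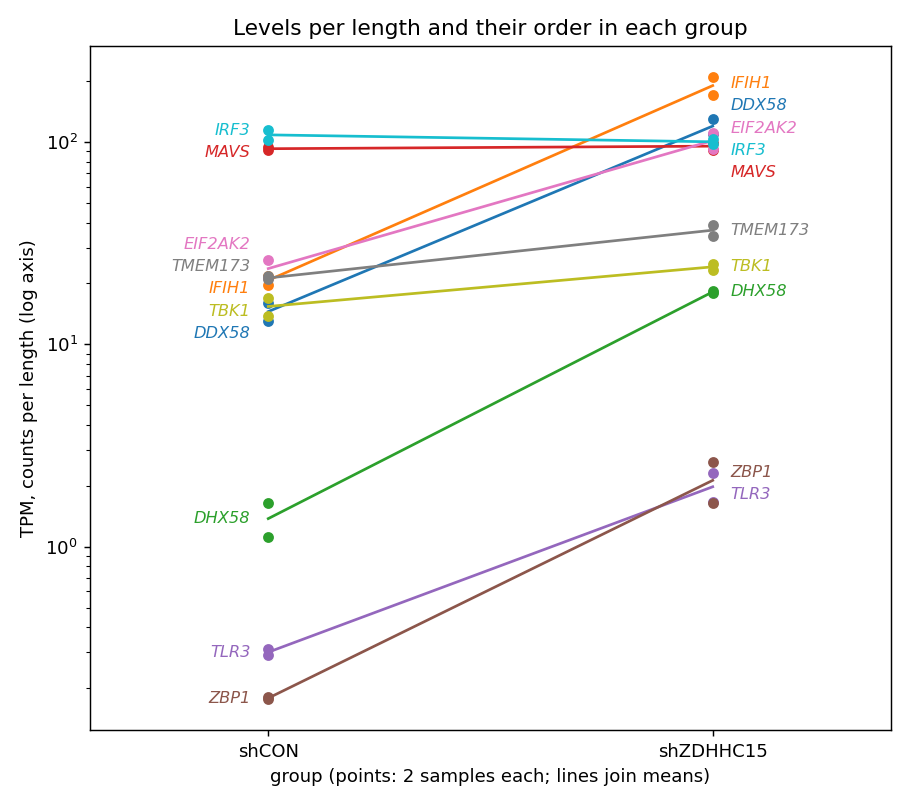
TPM of the 10 genes on a log axis in shCON (left) and shZDHHC15 (right), with points for the 2 samples of each group and lines between the means. IRF3 and MAVS run nearly level at about the height that DDX58 and EIF2AK2 reach in shZDHHC15, and IFIH1 crosses both.

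Other genes of these routes were taken from 5 lists with 63 genes, of which 59 were tested. Among them edgeR called 24 higher and 12 lower at the same threshold, beside the 21.7% and 20.3% of all tested genes. The median log2 fold change of the 59 genes was 0.12.

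Among 14 regulators of the RIG-I-like receptors, 3 were higher, 4 lower and 7 not called, beside 21.7% higher and 20.3% lower over all tested genes. The helicase gene DDX60 rose most, from 163 and 108 counts in shCON to 956 and 943 in shZDHHC15 (log2 fold change 2.69, standard error 0.153, adjusted p = 4.35e-09 by edgeR). ZC3HAV1, which encodes the CpG RNA-binding protein ZAP, rose by 1.59 on the log2 scale and the helicase gene DDX3X by 0.57. Lower were PPP1CC (-0.84) and PPP1CA (-0.72), catalytic subunits of the phosphatase that releases RIG-I and MDA5 from inhibition, and PRKRA (-0.49), which encodes the PKR and RIG-I activator PACT. TRIM25 and RNF135, the ubiquitin ligases of RIG-I, did not pass the test, with log2 fold changes of 0.21 (adjusted p = 0.0705) and 0.07 (adjusted p = 0.736). PPP1CA and PRKRA overlap other genes on the opposite strand.

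On the DNA side, 5 of 14 tested genes were higher and 5 lower, beside 21.7% and 20.3% of all tested genes. The 5 higher genes include CGAS, which passed the filter only through the shZDHHC15 samples. SAMHD1, a phosphohydrolase that depletes deoxynucleotides, went from 408 and 363 counts to 3840 and 3379 counts (log2 fold change 3.11, standard error 0.119, adjusted p = 6.03e-11 by edgeR), although TLDC2 overlaps 1159 bases of its exons on the opposite strand. The DNA sensors AIM2 and IFI16 rose by 2.28 and 1.87, where AIM2 had few counts, 20 and 20 in shCON and 110 and 102 in shZDHHC15. BANF1, which coats cytosolic DNA and shields it from cGAS, was lower, with a log2 fold change of -0.73, as were the RNase H2 subunit gene RNASEH2C (-0.64) and SLC19A1 (-0.44), a folate carrier that also imports cyclic dinucleotides, and all 3 overlap coding genes on the opposite strand. TREX1, the exonuclease that clears cytosolic DNA, was at 0 counts in every sample, and its whole length of 1515 bases overlaps ATRIP exons on the same strand.

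Among the endosomal receptors and their helpers, 4 of 8 tested genes were higher and 2 lower, beside 21.7% and 20.3% of all tested genes. TLR7, a receptor of single-stranded RNA, received 11 and 4 counts in shCON and 34 and 27 in shZDHHC15 (log2 fold change 1.88, adjusted p = 0.00595 by edgeR) and reached the filter only through the shZDHHC15 samples. UNC93B1 and HSP90B1, which carry and fold endosomal receptors, each rose by 0.71. TICAM1, which encodes TRIF, the only adaptor of TLR3, fell by 0.72 on the log2 scale, from 2233 and 2173 to 1258 and 1671 counts (adjusted p = 1.49e-04), opposite to TLR3 itself. The kinase gene IRAK1 fell by 0.49.

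In the branch around TBK1 and IRF3, 7 of 12 genes were higher and 0 lower, with 0 lower also at an unadjusted p under 0.05 and by DESeq2. Over all 15817 tested genes, 21.7% were called higher and 20.3% lower by edgeR. At that unadjusted p 3777 were lower, and 2704 by DESeq2. IRF7, the relative of IRF3 that is itself raised by interferon, went from 954 and 994 to 3701 and 3572 counts (log2 fold change 1.78, standard error 0.104, adjusted p = 5.92e-09 by edgeR). IKBKE, the paralog of TBK1, rose by 1.00, and the TPM ratio of TBK1 to IKBKE was 0.449 and 0.359 in shCON and 0.284 and 0.305 in shZDHHC15. OPTN, an autophagy receptor that binds TBK1, rose by 0.84. The ubiquitin ligase genes TRAF3 and TRAF6 did not pass the test, with adjusted p = 0.977 and 0.898 by edgeR.

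Around PKR and ZBP1, 5 of 11 tested genes were higher and 1 lower, beside 21.7% and 20.3% of all tested genes. ADAR, whose enzyme edits double-stranded RNA and so hides it from MDA5 and PKR, rose from 8130 and 6749 to 22687 and 20703 counts (log2 fold change 1.43, standard error 0.098, adjusted p = 3.84e-08 by edgeR). The TPM ratio of EIF2AK2 to ADAR was 0.163 and 0.158 in shCON and 0.243 and 0.233 in shZDHHC15, with both shZDHHC15 values above both shCON values. MLKL, the executor of necroptosis downstream of ZBP1, rose by 1.67 and DNAJC3, which encodes a PKR inhibitor, by 1.05. The MLKL value rests on few counts, 20 and 41 in shCON and 112 and 100 in shZDHHC15 (standard error 0.306). TARBP2, which encodes a double-stranded RNA-binding partner of Dicer that restrains PKR, was lower, with a log2 fold change of -0.58. RIPK3, the kinase between ZBP1 and MLKL, was at 0 counts in all 4 samples, and AL096870.1 overlaps 358 bases of its exons on the same strand.

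**Figure D4:**
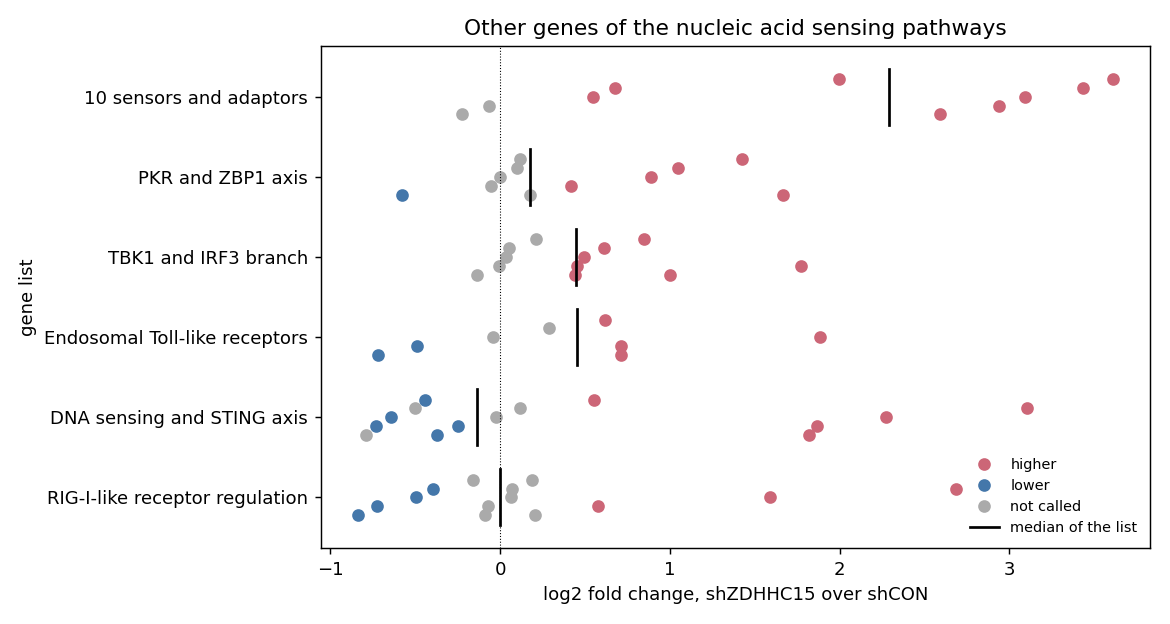
Log2 fold change of each tested gene of the 5 pathway lists and of the 10 sensors and adaptors (points, red for called higher, blue for called lower, grey for not called), with a black line at the median of each list. The medians of the 5 lists lie between -0.14 and 0.45, and that of the 10 genes lies at 2.29.

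The 7 interferon ligand genes examined, with IFNA1 as the only IFNA gene, were barely detected or absent. IFNB1 received 1 and 0 counts in shCON and 4 and 3 counts in shZDHHC15, IFNL2 2 and 0 against 10 and 1, and IFNL3 1 and 0 against 5 and 3, and none of these was tested. IFNL2 and IFNL3 are close copies, between which reads may be split. IFNL1 received 5 and 2 counts in shCON and 12 and 15 in shZDHHC15 (log2 fold change 1.79, standard error 0.636, adjusted p = 0.0346 by edgeR), but it too reached the filter only through the shZDHHC15 samples, and the DESeq2 Wald test did not call it (adjusted p = 0.19). IFNE, likewise in the test only through shZDHHC15, had 9 and 5 against 13 and 11 counts (adjusted p = 0.378 by edgeR), and IFNA1 and IFNK were at 0 in every sample. With so few counts, no difference in a ligand transcript held under both tests.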

How the data were processed

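RNA of 4 HCC1954 samples was sequenced from libraries built with the NEBNext Ultra kit. The authors deposited raw counts of reads per gene, not normalized. The submitters' processing notes name HISAT2, SAMtools, StringTie and hg38, and which tool counted and whether it used the strand are not given in the sources used here. All 58735 genes had the start, end and symbol of GENCODE release 29, and the gene lengths, used for TPM, equalled the union of its exons. Genes were filtered with filterByExpr and compared with edgeR 4.0.16 in R 4.3.3 (TMM factors between 0.962 and 1.03, glmQLFit without the legacy option, glmQLFTest), with p-values adjusted by Benjamini-Hochberg over 15817 genes and a threshold of 0.05. Standard errors and 95% intervals were derived from the F statistic and its degrees of freedom. The total of 17560982 to 19118704 counts per sample sets the precision. A permutation of 2 against 2 samples cannot give a two-sided p below 0.333. Samples of a group differed by more than counting noise (chi-square per degree of freedom 8.32 for shCON and 6.79 for shZDHHC15, over genes with at least 20 counts in the pair).

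The members, gene lists and motifs were chosen with earlier results of these data known, and lists are described by counts and medians without a test. Named genes are the 10 members, ZDHHC15, up to 3 rises and 3 falls of each list, the interferon ligands and the 3 genes nearest in pattern to the member with the highest absolute log2 fold change. CGAS, TRIM25, RNF135, TREX1, RIPK3, TRAF3, TRAF6, EIF2S1, CD3E, CD14, IL3RA and the genes overlapping members were added after their values were seen. Exon overlaps were read from GENCODE 29, near-identical transcripts were searched with BLAST 2.17.0, and promoters came from RefSeq on GRCh38.p14. Alternatives were other scalings, DESeq2 1.42.0, other filters, the legacy dispersion, a replicate block, glmTreat against a fold change of 1.2, a log2 fold change limit of 1 and leaving out each sample.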

Additional observations from a re-analysis of the deposited data

How the results depend on the processing

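Each of the 8 rises kept its direction and its call in every alternative in which the gene was tested and in all 4 fits that left out 1 sample, except that TMEM173 and TBK1 fell short where a log2 fold change over 1 was required. ZBP1 could not be tested once every sample had to hold 10 counts or more, where 7 genes were called higher. Across the alternatives TBK1 lay between 0.51 and 0.62 (largest adjusted p = 0.0305), TMEM173 between 0.64 and 0.75, EIF2AK2 between 1.97 and 2.07 and DHX58 between 3.58 and 3.68. Leaving out 1 sample moved ZBP1 between 3.07 and 3.72 and TLR3 between 2.34 and 2.81. MAVS turned to 0.0091 with library size only. IRF3 lay between -0.37 and -0.12 with 1 sample left out, so that from 0 to 1 members were lower, that 1 being IRF3 without shCON replicate 1. With a log2 fold change over 1 required, 6 members, 11 other pathway genes and 1188 of all tested genes were higher, and 0 members, 0 other pathway genes and 599 of all genes were lower. Without a filter on low counts, 2282 of 30168 tested genes were higher and 2350 lower. With glmTreat, 2274 of 15817 were higher and 1883 lower. The numbers of the samples mark no shared batch in the labels, and the correlation of same-numbered deviations was 0.0344 over 15817 genes. With the replicate block 8 members were higher and 0 lower, and 3723 of all genes were higher and 3502 lower. Depth limits TLR3, ZBP1, CGAS, TLR7 and the interferon genes, whose shCON counts were all at or under 11. To a lesser degree it limits AIM2, DHX58 and MLKL, with shCON counts between 20 and 41.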
